A study of Mus musculus with 21 samples.

Results

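A set of 10 genes commonly used as markers of the choroid plexus epithelium were followed through punches of the ventral hypothalamus (VH; circumventricular hypothalamus in the labels) of mice under a diet switch (DS). They were *Ttr*, *Cldn2*, *Folr1*, *Kl*, *Kcnj13*, *Clic6*, *Otx2*, *Kcne2*, *Slc4a5* and *Aqp1*, chosen by gene symbol, and all 10 were among the 21654 genes of the count table. The question was whether *Cldn2* followed the other genes from library to library. The mice were male C57/B6J, 12 to 14 weeks old when acquired, with no engineered allele. RC NoDS mice (n = 5 libraries) stayed on regular chow (RC) and HFD NoDS mice (n = 5) on high-fat diet (HFD), RC → HFD mice (n = 6) went from chow to high-fat diet, and HFD → RC mice (n = 5) went the opposite way. All were kept awake for 3 hours and killed at zeitgeber time 6. Each library came from brain punches of 2 mice pooled, so the spread between libraries understates that between mice, and a punch can take in different amounts of neighbouring tissue. The reads counted on genes lay between 16380781 and 16390598 per library.

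The choroid plexus is a folded epithelium in the brain ventricles that secretes cerebrospinal fluid. Its cells take up and release ions, water, folate and hormone carriers, and tight junctions between them form the barrier between blood and cerebrospinal fluid. *Cldn2* encodes claudin 2, a tight junction protein that makes the junction permeable to small cations and water.

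The levels bore out the label only in part. *Kcne2*, a potassium channel subunit of the epithelium, had 3 reads in RC → HFD replicate 8 and 0 reads in the other 20 libraries. *Slc4a5*, a sodium bicarbonate transporter of the same cells, had reads in 5 of 21 libraries, 11 at most. A count of 0 leaves room for up to 3 reads in a library, from counting error only. The remaining 8 genes averaged at least 5 reads, the minimum for testing, as did 15884 genes of the table. Per kilobase of exon, averaged over the libraries, the levels ran from *Clic6* (215 reads per kb) through *Kl* (56.5), *Ttr* (27.7), *Folr1* (14.4), *Kcnj13* (11.2), *Aqp1* (6.34) and *Cldn2* (2.91) to *Otx2* (2.23). *Ttr*, the transcript most closely tied to this epithelium in the brain, was thus below *Clic6* and *Kl*. Because whole tissue was sequenced, fewer cells of a type and less RNA per cell cannot be told apart. The genes are therefore called by their names below.

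*Cldn2* (ENSMUSG00000047230, X:136335367-136345925, plus strand, mm9) was low in every library and differed most in HFD → RC. It had 22, 7, 6, 10 and 10 reads in RC NoDS replicates 1, 2, 3, 5 and 6. In RC → HFD it had 11 to 19 reads with a median of 15.5. In HFD → RC it had 0, 0, 4, 4 and 0 reads in replicates 13 to 17. The HFD → RC libraries were all below every RC → HFD and every RC NoDS library. In HFD NoDS it had 17, 3, 7, 6 and 15 reads in replicates 19, 20, 21, 23 and 24, which overlapped all 3 other groups. The mean was 15.3 ± 2.88 reads (SD, n = 6) in RC → HFD, 11 ± 6.4 (n = 5) in RC NoDS, 9.6 ± 6.07 (n = 5) in HFD NoDS and 1.6 ± 2.19 (n = 5) in HFD → RC. The reads of RC → HFD, RC NoDS and HFD NoDS, neighbours in that order, overlapped.

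*Cldn2* was the only member without overlap between RC → HFD and HFD → RC, where 0.472% of all genes tested had none. The same held between RC NoDS and HFD → RC, where 1.36% had none. Since *Cldn2* was chosen with earlier results of these data known, nothing is drawn from these shares. No member was without overlap in RC NoDS v HFD NoDS (0.913% of all genes), RC NoDS v RC → HFD (1.03%), RC → HFD v HFD NoDS (0.718%) or HFD → RC v HFD NoDS (0.995%). From RC → HFD to HFD → RC the log2 fold change of *Cldn2* was -3.16 ± 0.91 (SE), with an edgeR adjusted p of 0.717. From RC NoDS to HFD → RC it was -2.66 ± 0.92 (SE), with an edgeR adjusted p of 0.428. From HFD → RC to HFD NoDS it was 2.48 ± 0.92 (adjusted p = 0.571). None of the 3 passed the threshold of 0.15 in edgeR, and with so few reads in HFD → RC the size of the fold is poorly fixed. In the remaining pairs the log2 fold change was 0.50 from RC NoDS to RC → HFD, -0.68 from RC → HFD to HFD NoDS and -0.18 from RC NoDS to HFD NoDS. Among genes with a mean of 5 to 50 reads, the percentage at 0 in a library averaged 16.5% in HFD → RC, 11.9% in RC → HFD, 16.3% in HFD NoDS and 3.22% in RC NoDS. This percentage may be higher where a library holds few molecules, which was not tested. It ran from 2.31% to 22.4% in RC → HFD and from 5.68% to 31.9% in HFD → RC, which overlapped, while RC NoDS (1.12% to 7.22%) and HFD NoDS (7.70% to 32.9%) did not. In HFD → RC replicates 13 to 17 it was 9.24%, 20.5%, 5.68%, 15.1% and 31.9%. With this percentage as a covariate, the log2 fold change of *Cldn2* was -3.09 ± 0.89 (SE; edgeR adjusted p = 0.741) from RC → HFD to HFD → RC, -2.0005 ± 1.00 (adjusted p = 0.906) from RC NoDS to HFD → RC and 0.56 ± 0.92 (adjusted p = 1.00) from RC NoDS to HFD NoDS, where its sign changed.

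**Figure D1:**
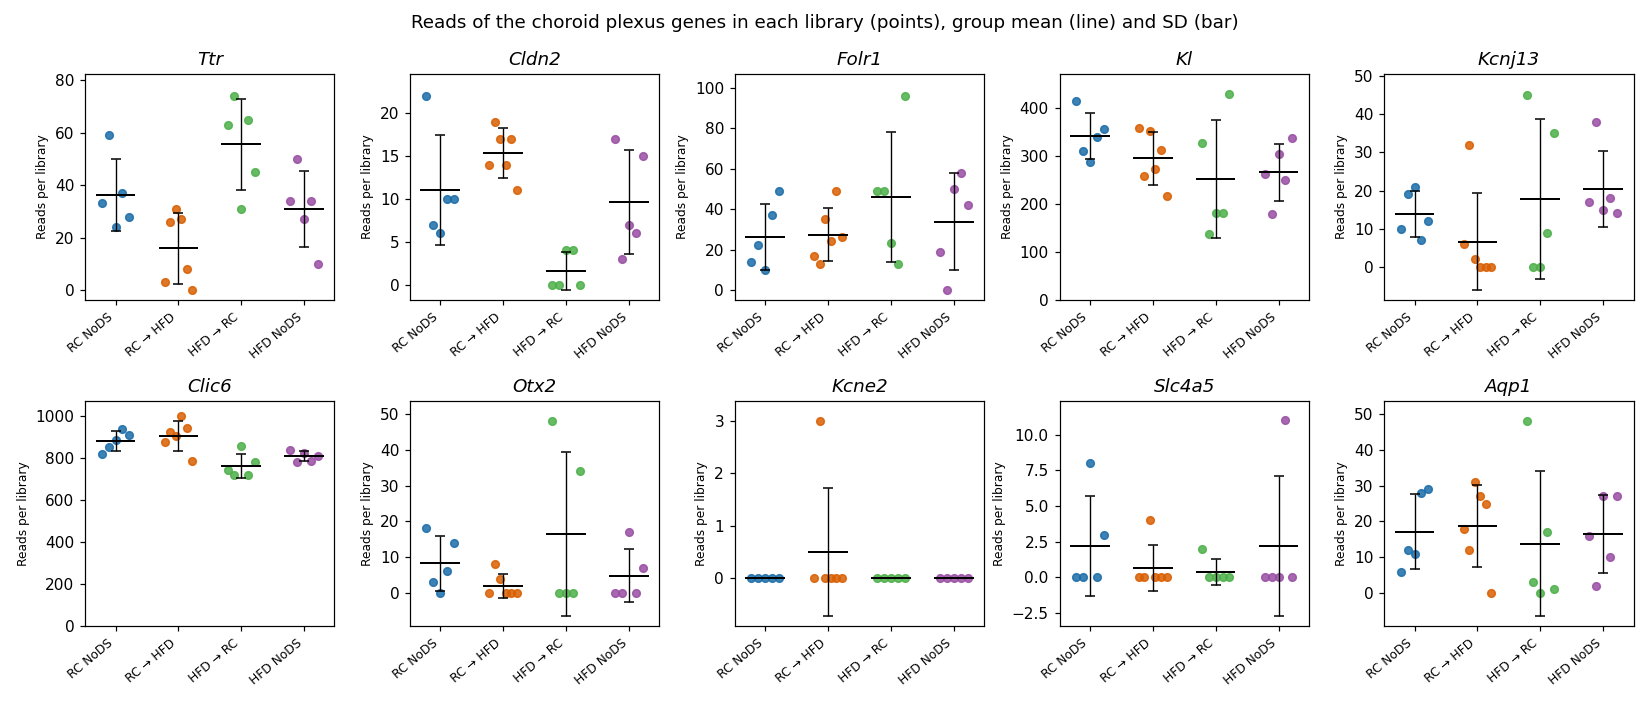
Reads per library (vertical axis) of the 10 genes in RC NoDS, RC → HFD, HFD → RC and HFD NoDS (horizontal axis); points are libraries, lines group means and bars SD. *Cldn2* has 0 to 4 reads in HFD → RC and 11 to 19 in RC → HFD, while *Ttr* has 31 to 74 and 0 to 31.

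*Ttr*, which encodes transthyretin, a carrier of thyroid hormone and retinol-binding protein, had its highest group mean in HFD → RC and its lowest in RC → HFD, the reverse of *Cldn2*, with RC NoDS above HFD NoDS for both genes. It had 33, 59, 24, 37 and 28 reads in RC NoDS and 63, 74, 31, 65 and 45 in HFD → RC. In RC → HFD it had 0 to 31 reads with a median of 17. In HFD NoDS it had 34, 50, 27, 34 and 10 reads. HFD → RC was the highest group and RC → HFD the lowest, and these met at 31 reads, while RC NoDS and HFD NoDS overlapped both. The log2 fold change from RC → HFD to HFD → RC was 1.80 ± 0.61 (SE; edgeR adjusted p = 0.864), where that of *Cldn2* had the other sign. Reads of *Ttr* may include some from the overlapping gene *Gm16090* on the other strand, since it is not stated whether counting used the strand.

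Among the transport genes, *Folr1*, the folate receptor of the epithelium, had 0 to 96 reads and overlapped between all groups, with the widest range in HFD → RC (13 to 96). *Aqp1*, a water channel of the apical membrane, had 0 to 48 reads. *Kcnj13*, an inwardly rectifying potassium channel, had 0 reads in 3 of 6 RC → HFD and 2 of 5 HFD → RC libraries and 7 to 38 reads in every library of the NoDS groups. For each of these 3 genes libraries of a group differed more than group means did. The pooled variance of libraries within groups was 14.8 times the mean for *Folr1*, 12.7 times for *Kcnj13* and 11.4 times for *Aqp1*, against 2.26 times for *Cldn2* and 6.48 times for *Ttr*. *Kcnj13* lies across *Gigyf2* on the opposite strand, and its reads may include some from that gene for the same reason as with *Ttr*.

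*Clic6*, a member of the chloride intracellular channel family, had the narrowest range of the members relative to its mean. It had 817, 850, 886, 937 and 908 reads in RC NoDS and 743, 718, 855, 718 and 780 in HFD → RC. In RC → HFD it had 786 to 997 reads with a median of 914, and in HFD NoDS 837, 782, 823, 786 and 810. Its group means had the same order as those of *Cldn2*, but every pair of groups overlapped. *Clic6* overlaps *2410124H12Rik* on the same strand, and how reads in the shared stretch were assigned is not stated. The log2 fold change from RC → HFD to HFD → RC was -0.25 ± 0.08 (SE; edgeR adjusted p = 0.859). *Kl*, which encodes klotho, a co-receptor for a fibroblast growth factor, had 138 to 429 reads, and both extremes were HFD → RC libraries. *Otx2*, a homeodomain transcription factor of the epithelium, had 0 reads in 11 of 21 libraries and 48 and 34 reads in HFD → RC replicates 13 and 17.

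No member was called in any comparison by edgeR. Of all genes tested, 0.063% were called in RC NoDS v HFD NoDS, 0.0126% in RC → HFD v HFD → RC, 0.0315% in RC NoDS v RC → HFD, 0.157% in RC NoDS v HFD → RC, 0.0063% in RC → HFD v HFD NoDS, 0.0252% in HFD → RC v HFD NoDS and 0.126% across all 4 groups. DESeq2 and limma-voom called 0 members as well. At an unadjusted p under 0.05, edgeR had 4 of 8 members between the DS groups (*Ttr*, *Cldn2*, *Clic6* and *Otx2*) beside 798 of 15884 genes, 2 in RC NoDS v HFD → RC (1114 genes), 1 in RC → HFD v HFD NoDS (1099), 1 in HFD → RC v HFD NoDS (1176), 0 in RC NoDS v HFD NoDS (1022), 0 in RC NoDS v RC → HFD (881) and 2 across all 4 groups (1123). *Otx2* passed the filter of 5 reads only through HFD → RC, which held 82 of its 159 reads. Its place in the count between the DS groups is therefore not independent of the filter. *Cldn2* was chosen with earlier results of these data known, so its place there is not independent either. Nothing is drawn from that count. The number of genes called was unstable: with a library left out in turn it lay between 1 and 39 between the DS groups (2 with all libraries; 39 without HFD → RC replicate 16) and between 1 and 179 in RC NoDS v HFD → RC (25 with all; 1 without RC NoDS replicate 1, 2 or 5 or HFD → RC replicate 14, 2 without HFD → RC replicate 13 or 15, 118 without HFD NoDS replicate 20 and 179 without HFD → RC replicate 16). No member was called in any of these fits.

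Whether *Cldn2* followed *Ttr* was tested within groups, so that a difference in group means could not make them move together. The slope of *Cldn2* on log2 *Ttr* was -0.012 ± 0.22 (SE; edgeR adjusted p = 0.997), a change in *Cldn2* per doubling of *Ttr* whose error spans modest slopes either way. None of the 7 other genes tested, *Cldn2* included, had a slope that passed, and 0% of all genes did, with 837 of 15883 at an unadjusted p under 0.05. DESeq2 called 25 genes and limma-voom 0, none of them a member. The slope was highest for *Kcnj13* (0.62 ± 0.38, adjusted p = 0.925). With *Ttr* as a covariate, the log2 fold change of *Cldn2* from RC → HFD to HFD → RC was -3.13 ± 1.04 (adjusted p = 0.999).

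Across the 21 libraries, *Cldn2* ran with *Clic6* and against *Ttr*, but neither relation passed after adjustment. With *Clic6*, Pearson's r of log2(CPM + 0.5) was 0.64 (permutation p = 0.00181, adjusted over 15883 genes 0.273) and Spearman's rho 0.66 (permutation p = 0.00131, adjusted 0.393). HFD → RC replicates 13, 14 and 17, all with 0 reads, tied as farthest from the *Cldn2* median, so each choice of 2 of these was left out, the choices other than 13 and 14 having been added after the data were seen. With *Clic6*, r was then 0.51 to 0.57 (permutation p = 0.012 to 0.0256), without all 3 it was 0.45 (permutation p = 0.0626), and with group means removed it was 0.18 (permutation p = 0.403). With *Ttr*, r was -0.57 (permutation p = 0.00632, adjusted 0.338) and rho -0.62 (permutation p = 0.00324, adjusted 0.499). Without 2 of the tied libraries r was -0.52 to -0.45 (permutation p = 0.022 to 0.0539), without all 3 it was -0.42 (permutation p = 0.0856), without the 2 libraries farthest from the *Ttr* median, RC → HFD replicates 7 and 12, it was -0.67 (permutation p = 0.00155), and within groups it was -0.11 (permutation p = 0.601). Both coefficients were thus closer to 0 once the differences between group means were removed.

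For the remaining members r with *Cldn2* was 0.39 (*Kl*), 0.31 (*Aqp1*), -0.21 (*Folr1*), -0.23 (*Otx2*) and -0.30 (*Kcnj13*), with rho of 0.33, 0.27, -0.23, 0.042 and -0.29. Their permutation p lay between 0.0781 and 0.352 for r and between 0.145 and 0.857 for rho, and their adjusted p between 0.590 and 0.809 and between 0.777 and 0.984. Within groups r was 0.20, 0.16, -0.026, 0.036 and -0.27. Without 2 of the tied libraries r lay between 0.33 and 0.77 for *Kl*, 0.081 and 0.49 for *Aqp1*, -0.072 and 0.058 for *Folr1*, -0.15 and 0.36 for *Otx2*, and -0.41 and -0.023 for *Kcnj13*. The highest value for *Kl*, without replicates 13 and 17, had a permutation p of 9e-05 (adjusted 0.344), and r was 0.67 without all 3. With a single library left out, r lay between 0.23 (without HFD → RC replicate 14) and 0.60 (without replicate 17) for *Kl* and between 0.20 (without replicate 17) and 0.54 (without replicate 13) for *Aqp1*. For *Folr1* it lay between -0.44 (without HFD NoDS replicate 20) and -0.056 (without HFD → RC replicate 17), for *Otx2* between -0.35 (without RC NoDS replicate 1) and -0.0060 (without HFD → RC replicate 13), and for *Kcnj13* between -0.48 (without replicate 14) and -0.18 (without replicate 13). In all, 3 of 7 genes had r above 0 with a median of -0.21, beside 8538 of 15883 genes and a median of 0.027 in the table. By Pearson and by Spearman 0% of genes were called, with 1448 genes at an unadjusted p under 0.05 for Pearson, and the smallest adjusted p was 0.212. With 100000 permutations a gene alone at the smallest possible p would have an adjusted p of 0.159, so the threshold of 0.15 was hard to reach for any gene by this test.

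**Figure D2:**
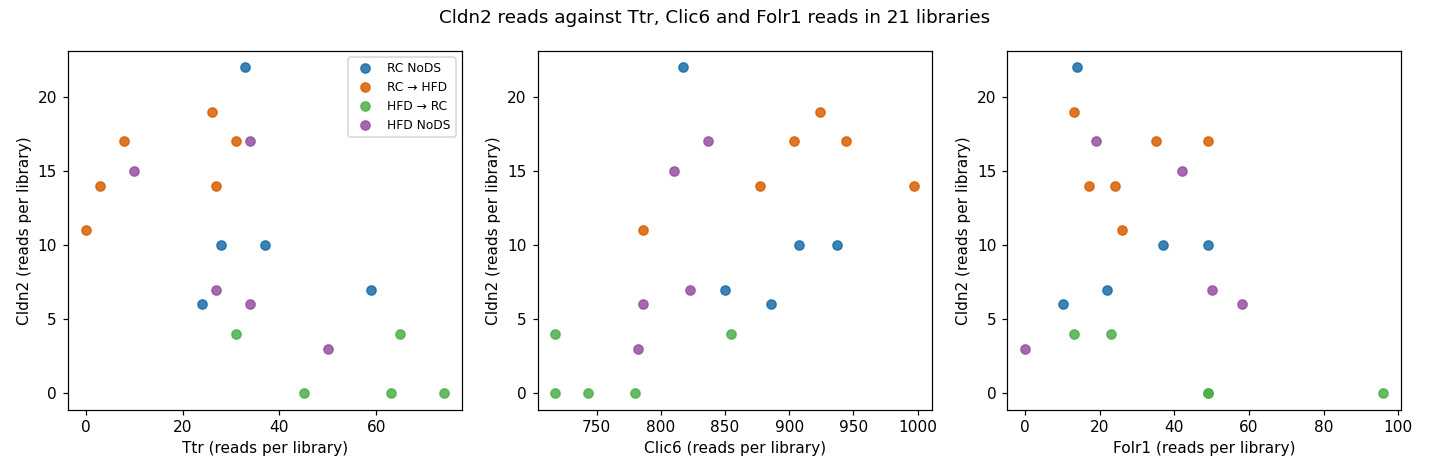
*Cldn2* reads (vertical axis) against *Ttr*, *Clic6* and *Folr1* reads (horizontal axes) in 21 libraries, coloured by group. HFD → RC libraries have 0 to 4 *Cldn2* reads, a range that HFD NoDS replicate 20 shares with 3.

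As a reference, no relation of the other genes with *Ttr* passed either. Pearson's r with *Ttr* was 0.38 (*Kcnj13*), 0.26 (*Otx2*), 0.0026 (*Aqp1*), -0.013 (*Folr1*), -0.25 (*Kl*) and -0.38 (*Clic6*), with rho of 0.31, 0.12, -0.09, 0.05, -0.24 and -0.55. Permutation p lay between 0.0876 and 0.991 for r and between 0.0101 and 0.832 for rho, with adjusted p of at least 0.923. Without the 2 libraries farthest from the *Ttr* median r was 0.24, 0.11, -0.30, -0.13, -0.41 and -0.60, and within groups 0.25, 0.02, 0.23, -0.19, -0.17 and 0.15. By either coefficient 0% of genes were called, with 846 at an unadjusted p under 0.05 for Pearson. A p that misses the threshold does not show that these genes vary apart, and genes with few reads carry much counting error.

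The genes most like *Cldn2* over 21 libraries were *Rbm28* (r = 0.79), *Cdh29* and *Cisd3* (0.73 and 0.72), *Cct2* and *Usp11* (both 0.71), *Raph1* (0.70), and *Cct3*, *Coch*, *Ttc36* and *Abhd1* (all 0.69). *Clic6* ranked 25 of 15883, *Kl* 1126, *Aqp1* 2233 and *Ttr* 15715. Genes among those most like *Ttr* were *Ecscr* and *Phlpp1* (both 0.73), and *Serinc5*, *Rpl31*, *Npas3*, *2310057M21Rik*, *Zfp791*, *Jmy* and *Tril* (0.68 to 0.69). None of the genes given as most like *Cldn2* or *Ttr* was a member.

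Of 32 further genes listed as markers of the epithelium, 29 were tested and none was called by edgeR in any pair of groups. With *Cldn2*, 7 of 29 had r above 0 (median -0.12). With *Ttr*, 22 of 29 had r above 0 (median 0.09), beside 7578 of 15883 genes and a median of -0.01. The 6 with the highest mean counts were *Enpp2*, *Spint2*, *Igf2*, *Sulf1*, *Ace* and *Slc4a2*. Of these *Enpp2* is also made by oligodendrocytes and *Igf2* by meningeal cells. Per kilobase of exon *Spint2* had 1250 reads, *Sulf1* 259 and *Ace* 154, above the 27.7 of *Ttr*. Which cells the reads of the list came from was not tested. *Steap1*, *Tmem27* and *Tmem72* averaged under 5 reads. The summed reads of the list were 10162 to 14365 in RC NoDS and 9086 to 11248 in RC → HFD. They were 8954 to 12653 in HFD → RC and 9666 to 14362 in HFD NoDS. All groups thus overlapped in this sum, where the most abundant genes weigh most.

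Among claudins, 13 averaged at least 5 reads and none was called by edgeR. Per kilobase of exon *Cldn2* (2.91 reads) was the lowest of them, below *Cldn1* (4.40), *Cldn14* (5.62), *Cldn7* (6.26), *Cldn23* (8.58), *Cldn3* (9.76), *Cldn9* (37.3), *Cldn26* (63.2), *Cldn12* (154), *Cldn10* (247), *Cldn5* (294), *Cldn25* (463) and *Cldn11* (635). *Cldn5* is the claudin of brain endothelium and *Cldn11* that of myelin. Of the 12 others, 6 had r above 0 with *Cldn2*.

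Marker lists of neighbouring tissue were summed in each library, and their part in the *Cldn2* and *Ttr* differences was not tested. The blood cell list (5 of 5 genes tested, most reads in *Hbb-b1*) summed to 1057 to 2122 reads in RC → HFD, 676 to 6760 in HFD → RC, 3348 to 4547 in RC NoDS and 1550 to 4340 in HFD NoDS. Its 5 genes all had r above 0 with *Ttr* (median 0.35) and 0 of 5 with *Cldn2* (median -0.35). The tanycyte list (10 of 10, *Col23a1*) had medians of 10617 reads in RC NoDS, 7390.5 in RC → HFD, 7451 in HFD → RC and 10662 in HFD NoDS, and that of meningeal fibroblasts (10 of 10, *Dcn*) 3225, 1361.5, 1804 and 3418. Medians of the endothelial list lay between 2731 and 3082.5 reads and those of the ependymal list between 3320 and 3937. Those of the thalamic list lay between 5505 and 6182. Most of its reads were of *Calb2* (mean 4198), so the sum says little of its other genes. *Gpr151* of that list had 3 to 12 reads in RC NoDS and 0 to 12 in RC → HFD. It had 17 to 32 in HFD → RC and 9 to 112 in HFD NoDS. From RC → HFD to HFD → RC, 4 of the 8 thalamic genes had a log2 fold change above 0 and 4 below. The pituitary list summed to 168 to 842 reads in RC NoDS, 49 to 1928 in RC → HFD, 57 to 2874 in HFD → RC and 52 to 847 in HFD NoDS. Its medians were 594, 395, 150 and 372 in that order. All 10 tanycyte genes had r above 0 with *Ttr* (median 0.29), and 4 of 10 with *Cldn2* (median -0.059). Of these 10, 2 had an unadjusted permutation p under 0.05 with *Ttr* and 0 with *Cldn2*. With *Cldn2*, 1 of 10 meningeal (median -0.16) and 1 of 10 ependymal genes (median -0.14) had r above 0, and with *Ttr* 7 of 10 and 4 of 10 (medians 0.059 and -0.022). Of the endothelial, thalamic and pituitary lists 4 of 8, 4 of 8 and 2 of 6 had r above 0 with *Cldn2*. No blood, tanycyte or meningeal gene was called by edgeR, nor any ependymal (*Foxj1*), endothelial (*Flt1*), thalamic (*Calb2*) or pituitary (*Cga*) marker, and every gene on those 7 lists averaged at least 5 reads. Of the ventral hypothalamic list (most reads in *Pomc*) *Npy*, *Agrp* and *Cartpt* were called by edgeR in at least 1 comparison. Of the lateral hypothalamic list (most reads in *Pmch*) *Hcrt* was called, higher in HFD NoDS than in RC NoDS. *Hcrt* had 28 to 105 reads in RC NoDS and 58 to 355 in RC → HFD. It had 87 to 437 in HFD → RC and 93 to 1051 in HFD NoDS. Whether the punches took in different tissue was not tested.

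Promoter sequences from RefSeq (GRCm38.p6), 250 bases before to 50 after the start, matched 7 members with 11 promoters. The set used held none for *Ttr*, *Folr1* or *Clic6*, which does not show that RefSeq lacks them. The letters TAATCC, the core of sites for OTX-type homeodomain proteins, were searched on both strands because *Otx2* is a member. They occurred in 1 of 11 promoters, the third of *Otx2* itself, and in 7.06% of all 32851 promoters. The *Cldn2* promoter and that *Otx2* promoter are given 5′ to 3′, with the match, on the reverse strand, in capitals.
Cldn2, chrX:139800558-139800857, plus strand: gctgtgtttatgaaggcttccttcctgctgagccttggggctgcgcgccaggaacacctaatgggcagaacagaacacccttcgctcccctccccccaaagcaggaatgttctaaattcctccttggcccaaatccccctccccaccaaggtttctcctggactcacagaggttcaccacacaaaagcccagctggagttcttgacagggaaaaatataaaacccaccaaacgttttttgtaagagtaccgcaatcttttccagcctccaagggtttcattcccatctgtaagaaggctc
Otx2, chr14:48665060-48665359, minus strand: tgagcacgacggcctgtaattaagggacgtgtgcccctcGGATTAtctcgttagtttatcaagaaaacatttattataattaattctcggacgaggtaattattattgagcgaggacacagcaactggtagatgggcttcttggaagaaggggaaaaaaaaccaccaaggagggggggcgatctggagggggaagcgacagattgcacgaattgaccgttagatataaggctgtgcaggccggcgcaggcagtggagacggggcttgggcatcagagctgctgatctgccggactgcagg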

How the data were processed

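Gene expression was measured by polyA RNA-seq in 21 VH libraries. The authors aligned reads to mm9 with STAR 2.5.1b, merged runs with Picard 2.7.1, removed ribosomal and mitochondrial reads and re-sampled libraries to a common depth, and deposited whole-number read counts for each gene. Genes averaging at least 5 reads were fitted with edgeR 4.0.16 (TMM, quasi-likelihood F-test, a mean per group, all 21 libraries) under R 4.3.3. P-values were two-sided and adjusted by Benjamini-Hochberg over all genes tested, with a threshold of 0.15. The SE given with edgeR is the absolute fold change or slope divided by the square root of the F statistic. It is derived, not reported by the fit, and is approximate where reads are few. Correlations used 100000 permutations, at which a lone gene can reach no adjusted p below 0.159. Alternatives were DESeq2, limma-voom, other filters, scaling and covariates, and each library left out. Scripts were tested on simulated data. Members and gene lists were chosen with earlier results of these data known. Genes named are all members, the most abundant, called and absent genes of each list, 6 further epithelial genes, claudins averaging at least 5 reads, and the 10 genes most like *Cldn2* and *Ttr*, of which 1 is not reported here. The counts by list of r above 0, the reads of *Gpr151* and 10 alternatives were added after the data were seen. Positions and exon lengths came from GENCODE models on mm9. Depth limits genes with few reads, and errors from counts cover read sampling only.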

Additional observations from a re-analysis of the deposited data

Results flagged for a closer look

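Of 37 sets of a member's reads within a group that held any spread, 7 had a library far from the rest. How many sets would be flagged by chance was not tested. *Cldn2* had 22 reads in RC NoDS replicate 1 against 6 to 10 in the others. *Kcnj13* had 32 reads in RC → HFD replicate 8 against 0 to 6, and 38 in HFD NoDS replicate 20 against 14 to 18. *Kcne2* had 3 reads in RC → HFD replicate 8 and *Slc4a5* had 4 in RC → HFD replicate 9, 2 in HFD → RC replicate 13 and 11 in HFD NoDS replicate 23, each against 0 in the rest of the group, where any read stands apart. The causes were not tested.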

How the results depend on the processing

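No member was called under any alternative run here, with edgeR, DESeq2 or limma-voom. The log2 fold change of *Cldn2* from RC → HFD to HFD → RC stayed negative, from -3.70 to -3.09 (adjusted p 0.169 to 1.00) and from -3.79 to -2.86 with each library left out. From RC NoDS to HFD → RC it was -3.09 to -2.0005, and from HFD → RC to HFD NoDS 2.48 to 2.83. The causes of the changes of sign below were not tested, and none of the values concerned was called.

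With the share of genes at 0 as a covariate, the log2 fold change from RC NoDS to HFD NoDS was 0.56 for *Cldn2* and 0.86 for *Aqp1*, that of *Folr1* from RC NoDS to RC → HFD -0.079 and that of *Aqp1* from RC NoDS to HFD → RC 0.53. With limma-voom it was -0.45 for *Folr1* from RC NoDS to HFD NoDS, -0.33 for *Aqp1* from RC NoDS to RC → HFD, -1.31 for *Kcnj13* and -0.74 for *Otx2* from RC NoDS to HFD → RC, and -0.62 for *Folr1* and 0.10 for *Aqp1* from RC → HFD to HFD NoDS. The *Cldn2* slope on *Ttr* was 0.031 with limma-voom, and 0.075, 1.63 and 0.018 on *Kl*, *Clic6* and *Aqp1* in its place. For *Cldn2* and *Otx2*, rho was 0.042 and r within groups 0.036, and r was 0.36 without HFD → RC replicates 13 and 17 and 0.32 without 13, 14 and 17. For *Cldn2* and *Folr1*, r was 0.056 without replicates 13 and 17, 0.058 without 14 and 17 and 0.23 without all 3. These choices of replicates were added after seeing the data.

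With each library left out in turn, the log2 fold change from RC NoDS to HFD NoDS lay between -0.49 and 0.22 for *Cldn2*, -0.45 and 0.036 for *Ttr*, and -0.32 and 0.22 for *Aqp1*. From RC NoDS to RC → HFD it lay between -0.17 and 0.42 for *Folr1* and -0.068 and 0.42 for *Aqp1*. From RC NoDS to HFD → RC it lay between -0.32 and 0.70 for *Kcnj13* and -1.67 and 0.018 for *Aqp1*. From RC → HFD to HFD NoDS it lay between -0.00081 and 0.60 for *Folr1*, -0.20 and 2.40 for *Otx2*, and -0.48 and 0.069 for *Aqp1*. From HFD → RC to HFD NoDS it lay between -0.077 and 0.35 for *Kl*, -0.16 and 0.89 for *Kcnj13*, and -0.082 and 1.61 for *Aqp1*. The *Cldn2* slope on *Ttr* lay between -0.20 and 0.036. The stricter filter (50 reads) left only *Kl* and *Clic6*, and so gave no value for *Cldn2*. *Kcne2* and *Slc4a5* averaged too few reads to stand in for *Ttr*.

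The number of genes called in the whole table moved far more. In the order of the NoDS groups, the DS groups, RC NoDS v RC → HFD, RC NoDS v HFD → RC, RC → HFD v HFD NoDS, HFD → RC v HFD NoDS and all 4 groups, edgeR called 10, 2, 5, 25, 1, 4 and 20 genes, DESeq2 26, 7, 119, 155, 44, 67 and 131, limma-voom 9, 1, 5, 6, 1, 9 and 13, a robust dispersion 8, 0, 4, 3, 2, 2 and 10, and the share of genes at 0 as a covariate 6, 2, 4, 1, 1, 14 and 8. The stricter filter gave 10, 1, 5, 36, 2, 9 and 19, no filter 10, 3, 6, 30, 5, 5 and 31, and no TMM 10, 2, 4, 10, 2, 6 and 13. With only the libraries of the pair, the 6 pairs had 9, 1, 19, 24, 4 and 1. With each library left out they lay between 5 and 12, 1 and 39, 4 and 9, 1 and 179, 1 and 7, 0 and 9, and 7 and 79. For the slope, 0 genes were called on *Ttr* (25 with DESeq2, 2 without HFD NoDS replicate 20), *Clic6* or *Otx2*, 429 on *Folr1*, 27 on *Kl*, 2 on *Kcnj13* and 31 on *Aqp1*, where the counts with other genes in place of *Ttr* were chosen after seeing the data.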
